A study of Mus musculus with 16 samples.

Results

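The CCAAT/enhancer binding protein (C/EBP) family was followed in mouse epidermis as 7 genes: Cebpb, Cebpa, Cebpd, Cebpg, Cebpe, Cebpz and Ddit3. They were taken from the deposited count table by matching Ensembl gene IDs to these symbols. All 7 had a row among the 49585 genes of the table. 6 of them passed the filter on low counts, and Cebpe had no count in any library. The epidermis was taken by heat shock from the skin of SKH-1 mice, which are hairless, at 8 to 12 weeks of age. Knockout mice are labelled C/EBPB -/- and described as lacking the gene in epidermis alone, and control mice are labelled K5Cre. Cre under the keratin 5 promoter acts in basal keratinocytes and their descendants, so other cells of the skin keep the gene. The 4 groups were knockout epidermis 6 h after 100 mJ/cm2 of ultraviolet B (UVB), control epidermis 6 h after the same dose, unexposed knockout epidermis and unexposed control epidermis. Each group had 4 libraries. Whether each came from its own animal is not stated, so every p-value below rests on the spread among these libraries, part of which may be technical.

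C/EBP proteins are basic leucine zipper factors that bind DNA as dimers with themselves, with each other or with related factors. Cebpb, Cebpa and Cebpd encode activators, and in epidermis C/EBPβ and C/EBPα are known for slowing proliferation and turning on early differentiation genes as keratinocytes leave the basal layer. Cebpg encodes a short protein with no activation domain of its own, which pairs with other C/EBPs or with ATF4. Ddit3, also called CHOP, is a stress-induced member that keeps its partners from classical C/EBP sites. Cebpe encodes a factor of maturing granulocytes. Cebpz carries the name of the family, but its protein belongs with nucleolar factors of ribosome assembly known from yeast.

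Promoter sequence was at hand for 4 of the 7 members, in RefSeq windows on GRCm38.p6, and is shown as a description only. Each line gives the 250 bases before the start site annotated by RefSeq, 5′ to 3′ along the gene. Gene positions given below come from GENCODE M21, by which the Cebpg and Ddit3 windows run some bases into the gene. Capitals mark matches, on either strand, to TGACG (the core of a cAMP response element), CCAAT, TTGCNNAA (the core of a C/EBP palindrome), TGANTCA (an AP-1 site) or TATAAA. The windows are chr2:167688665-167688914 on the plus strand for Cebpb, chr7:35119043-35119292 on the plus strand for Cebpa, chr7:35056567-35056816 on the minus strand for Cebpg and chr10:127290543-127290792 on the plus strand for Ddit3.
Cebpb: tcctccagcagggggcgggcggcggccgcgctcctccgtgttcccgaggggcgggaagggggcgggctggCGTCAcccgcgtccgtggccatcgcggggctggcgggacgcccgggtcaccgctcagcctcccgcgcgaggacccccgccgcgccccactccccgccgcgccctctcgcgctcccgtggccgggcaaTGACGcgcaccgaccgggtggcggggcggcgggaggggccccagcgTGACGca
Cebpa: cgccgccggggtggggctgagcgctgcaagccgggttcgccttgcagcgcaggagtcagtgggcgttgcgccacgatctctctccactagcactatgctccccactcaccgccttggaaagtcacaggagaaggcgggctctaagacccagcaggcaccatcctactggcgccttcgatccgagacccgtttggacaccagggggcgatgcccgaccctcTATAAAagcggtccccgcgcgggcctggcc
Cebpg: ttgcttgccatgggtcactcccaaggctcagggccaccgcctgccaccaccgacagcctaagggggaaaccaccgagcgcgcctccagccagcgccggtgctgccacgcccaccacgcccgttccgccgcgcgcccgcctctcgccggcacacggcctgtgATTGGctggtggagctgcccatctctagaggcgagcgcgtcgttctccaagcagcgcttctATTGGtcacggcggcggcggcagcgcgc
Ddit3: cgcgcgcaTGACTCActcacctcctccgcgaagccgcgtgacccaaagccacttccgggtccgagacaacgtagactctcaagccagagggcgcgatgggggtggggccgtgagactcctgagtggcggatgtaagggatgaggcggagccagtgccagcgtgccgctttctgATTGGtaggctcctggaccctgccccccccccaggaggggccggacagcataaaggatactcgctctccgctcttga

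Cebpb, the target of the deletion, held TGACG in 3 places, starting at bases -180, -53 and -7 from the start site. TGACG was in 17.8% of all 32851 RefSeq promoter windows of this length. Cebpa had TATAAA at bases -30 to -25, as did 12.4% of the windows somewhere in their length. Cebpg had CCAAT on the complementary strand at bases -89 to -85 and -28 to -24, and Ddit3 at -77 to -73. CCAAT was in 33.8% of the windows. Ddit3 alone of the 4 had TGANTCA, at -242 to -236, a motif held by 6.75% of the windows. TTGCNNAA was in 9.56% of the windows and in none of these 4. No pair of matches overlapped, and a match is a description of letters, not a bound site.

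The 16 libraries held 32983160 to 53255160 counts each. Levels are given in CPM, that is, as shares of each library's counts on the usual scale, after scaling by edgeR's TMM factors. Keratinocyte markers summed to between 25815 and 68611 CPM in every library, so the labelled tissue matched its defining markers. At equal depth, 19215 to 21567 genes were detected in exposed knockout libraries, 16993 to 19345 in exposed controls, 18807 to 21173 in unexposed knockouts and 18457 to 19943 in unexposed controls. Mitochondrial transcripts took 5.44% to 5.99% of the counts in exposed knockouts and 5.24% to 9.65% in exposed controls, and unexposed knockout library 4 stood apart with 10.2%.

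Cebpb was checked first, since it was the gene deleted. It lies in 1 exon on chromosome 2, from 167688915 to 167690418 of GRCm38. Exposed knockout libraries 1 to 4 read 2.52, 3.03, 0.609 and 1.56 CPM, against 253, 305, 286 and 319.7 CPM in exposed controls. Unexposed knockout libraries read 0.702, 0.177, 0.543 and 0.875 CPM, against 186, 160.1, 164 and 155 CPM in unexposed controls. Every knockout library was far below every control library, so the labels and the targeted gene matched in all 16. Cebpb was 150-fold lower in knockouts after UVB (log2 fold change -7.23, SE 0.45, edgeR adjusted p = 1.71e-06) and 298-fold lower unexposed (-8.22, SE 0.49, adjusted p = 9.93e-07).

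A residue of Cebpb counts remained in the knockouts and was higher after UVB. The 4 exposed knockout libraries held 130, 161, 32 and 73 raw counts, and the 4 unexposed ones 43, 10, 27 and 28. The groups overlapped in CPM, at 0.609 to 3.03 exposed and 0.177 to 0.875 unexposed. The residue rose by 1.80 on the log2 scale (SE 0.43, edgeR adjusted p = 0.00513). Its log2 fold change stayed between 1.47 and 2.09 when each library was left out. Marker lists of cells other than keratinocytes moved both ways beside it. Monocyte and macrophage markers summed to 50.6 to 59.8 CPM in exposed knockouts and 31.9 to 38.4 CPM in unexposed knockouts, with 1 of 7 tested called. Most of that gap was Cd68, at 21.98 CPM exposed and 4.24 CPM unexposed, while Csf1r was at 25.3 and 23.4 CPM and Adgre1 at 2.64 and 3.79 CPM in the same order. Neutrophil markers summed to 158 to 279.5 CPM exposed and 50.5 to 94.9 CPM unexposed, most of it S100a8, which keratinocytes also make. The neutrophil markers Ly6g, Camp and Elane were at 0 in the exposed knockouts. Fibroblast markers were instead lower or level, at 96.1 to 119 CPM exposed and 105 to 354 CPM unexposed, and endothelial markers lower, at 29.2 to 50.4 CPM exposed and 53.3 to 82.1 CPM unexposed. The part of such cells in the residue was not tested, and in bulk tissue more cells of a type and more RNA per cell cannot be told apart. Tmem189, on the opposite strand, shares 312 bases with the Cebpb exon, and the part of its reads in the residue was not tested.

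In controls Cebpb was at 253 to 319.7 CPM after UVB and at 155 to 186 CPM unexposed, without overlap. Its log2 difference of 0.81 (SE 0.34, edgeR adjusted p = 0.0805) did not pass. Limma voom (adjusted p = 8e-05), edgeR without robust estimation (adjusted p = 0.0471) and a fit of only these 2 groups (adjusted p = 0.000134) called it, and DESeq2 (adjusted p = 0.101) did not. The log2 difference was nearly the same in these fits, at 0.79 to 0.81, and the cause of the change in call was not tested.

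**Figure D1:**
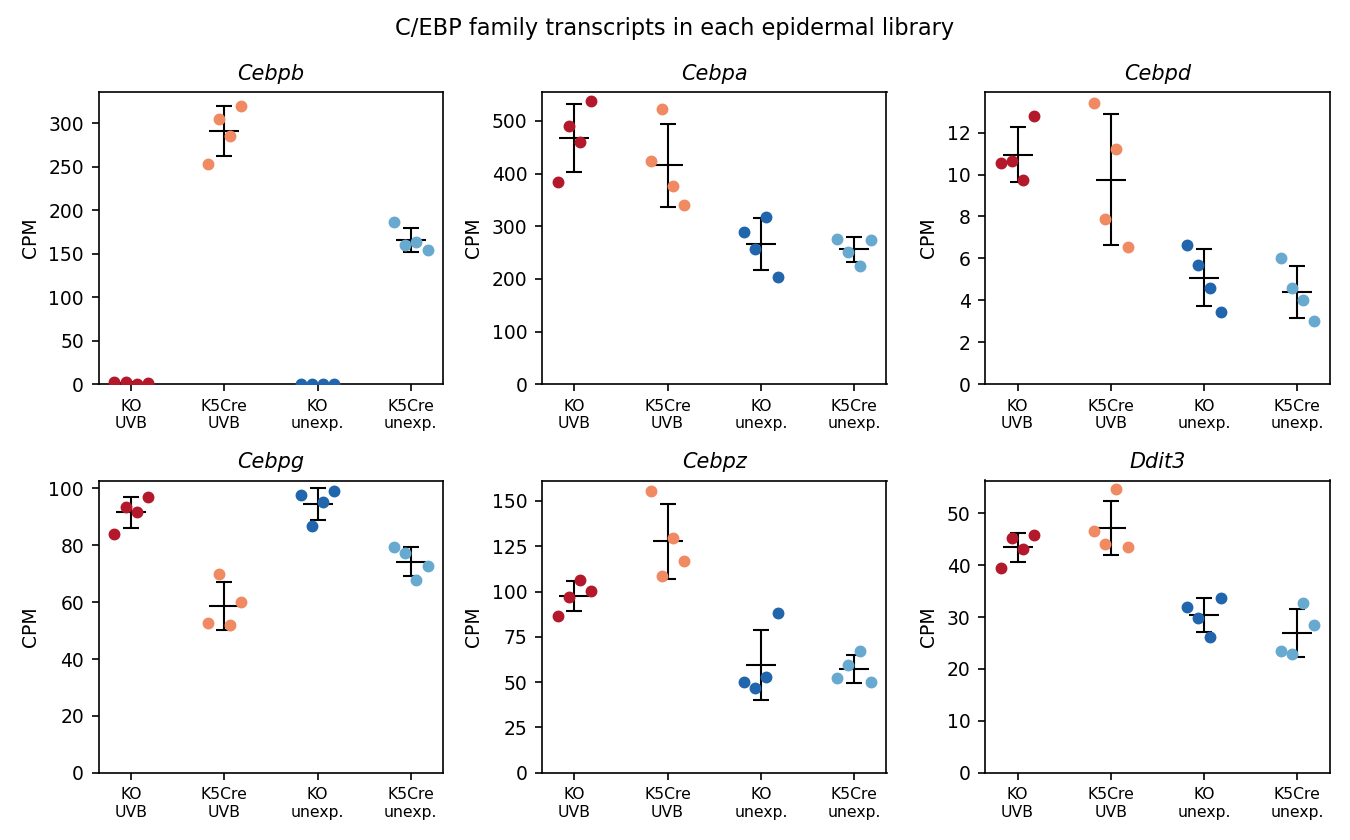
Levels of the 6 C/EBP genes with counts, in CPM on linear axes from 0. Each point is a library, bars give the mean ± SD of 4 libraries, and KO marks C/EBPB -/- epidermis. Cebpb lies near 0 in both knockout groups, the knockout points of Cebpg lie above the K5Cre points in each exposure, and Cebpa, Cebpd, Cebpz and Ddit3 are higher after UVB.

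The second activator, Cebpa, is the most abundant C/EBP transcript left in the knockouts. It lies in 1 exon on chromosome 7, from 35119293 to 35121928. Exposed knockout libraries read 384, 489.6, 459.8 and 538 CPM, and exposed controls 424, 523, 376 and 340.1 CPM. Unexposed knockouts read 289, 257, 318 and 203 CPM, and unexposed controls 276, 251, 225 and 274 CPM. Within each genotype every exposed library was above every unexposed one, while knockouts and controls overlapped both exposed and unexposed. After UVB, Cebpa rose by 0.81 in knockouts (1.75-fold, SE 0.15, edgeR adjusted p = 0.000346) and by 0.70 in controls (1.62-fold, SE 0.15, adjusted p = 0.00125). Between knockouts and controls it differed by 0.17 after UVB (SE 0.15, adjusted p = 0.598) and by 0.06 unexposed (SE 0.15, adjusted p = 0.976). Neither difference passed, and the unexposed one was -0.04 without knockout library 3.

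Cebpd, an activator that many cells switch on in acute inflammation, was scarce in all 4 groups. It has 1 exon on chromosome 16, from 15887286 to 15891031. Exposed knockout libraries read 10.6, 10.6, 9.75 and 12.8 CPM, and exposed controls 13.4, 7.87, 11.2 and 6.53 CPM. Unexposed knockouts read 6.63, 5.68, 4.59 and 3.47 CPM, and unexposed controls 6.01, 4.57, 4.03 and 3.04 CPM. Exposed and unexposed libraries did not overlap in either genotype. It rose by 1.10 in knockouts (2.14-fold, SE 0.27, edgeR adjusted p = 0.00303) and by 1.14 in controls (2.21-fold, SE 0.27, adjusted p = 0.00213). Knockouts and controls overlapped, with log2 differences of 0.16 after UVB (SE 0.26, adjusted p = 0.801) and 0.21 unexposed (SE 0.27, adjusted p = 0.903). Without exposed control library 4 the first of these was -0.00491.

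Cebpg was the 1 member other than Cebpb that differed between the genotypes. The gene is on chromosome 7 from 35046422 to 35056573, on the minus strand, in 3 merged exons, 62720 bases from Cebpa. Exposed knockout libraries read 84.0, 93.6, 91.7 and 97.1 CPM, against 52.5, 70.1, 51.8 and 60.2 CPM in exposed controls. Unexposed knockouts read 97.9, 86.7, 95.1 and 99.1 CPM, against 79.4, 77.3, 67.8 and 72.7 CPM in unexposed controls. Knockout and control libraries did not overlap, exposed or unexposed. After UVB Cebpg was 1.56-fold higher in knockouts (log2 fold change 0.64, SE 0.12, edgeR adjusted p = 0.00268). It was called in all 16 alternatives of scaling, filter, tool and libraries, at 0.57 to 0.89 with adjusted p from 2.65e-05 to 0.0176. Unexposed, the difference of 0.35 (1.27-fold, SE 0.11, adjusted p = 0.137) did not pass, while DESeq2 called it (adjusted p = 0.0367).

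Under UVB Cebpg also went its own way. In knockouts it did not pass (-0.05, SE 0.11, edgeR adjusted p = 0.812), with overlapping groups. In controls it fell by 0.34 on the log2 scale (SE 0.11, adjusted p = 0.0248), to 51.8 to 70.1 CPM, against 67.8 to 79.4 CPM unexposed, an overlap made by exposed library 2. This call ended without exposed control library 1 (adjusted p = 0.0766) or 3 (adjusted p = 0.086), and without unexposed control library 1 (adjusted p = 0.0693) or 2 (adjusted p = 0.0629). The difference between the 2 UVB responses was 0.29, knockout minus control (SE 0.16, adjusted p = 0.888). Exposed control library 2, the highest of its group for Cebpg, also had the most detected genes (19345) and the lowest mitochondrial share (5.24%) of that group. Some marker sums also separated the exposed groups. Those of fibroblasts were at 96.1 to 119 CPM in knockouts and 18.7 to 40.7 CPM in controls, mostly from Postn, with Lum at 0 in exposed controls. Endothelial markers were at 29.2 to 50.4 CPM in knockouts and 9.13 to 25.6 CPM in controls, with Cdh5 and Kdr at 0 in exposed controls. Neutrophil markers were at 158 to 279.5 CPM in knockouts and 296 to 499 CPM in controls, with Camp, Elane, Ngp and Retnlg at 0 in exposed controls. Most of this sum was S100a8, which keratinocytes also make, and 0 of the 4 tested were called. Cxcr2 went the other way, at 35.1 CPM in knockouts and 22.5 CPM in controls, as did the scarce Csf3r, while Mpo was lower in knockouts. Langerhans cell markers overlapped as a sum, at 699 to 856 CPM in knockouts and 601 to 735 CPM in controls, yet 3 of 7 were called higher in exposed knockouts, the most of any list. Cd207, the marker of these cells, was at 41.0 ± 3.75 CPM in knockouts and 24.0 ± 3.05 CPM in controls (SD, n = 4 each), and Epcam, the most abundant of the list in controls, at 299.6 CPM in knockouts and 385 CPM in controls. The part of these measures in the Cebpg difference was not tested.

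Ddit3 lies on chromosome 10 from 127290774 to 127296288. Exposed knockout libraries read 39.5, 45.2, 43.0 and 45.9 CPM, and exposed controls 46.5, 44.0, 54.7 and 43.5 CPM. Unexposed knockouts read 31.8, 29.9, 26.1 and 33.7 CPM, and unexposed controls 23.4, 22.8, 32.7 and 28.5 CPM. UVB separated the libraries of each genotype without overlap, and genotype did not. Ddit3 rose by 0.51 in knockouts (1.43-fold, SE 0.14, edgeR adjusted p = 0.00617) and by 0.81 in controls (1.76-fold, SE 0.14, adjusted p = 9.98e-05). Knockouts differed from controls by -0.12 after UVB (SE 0.14, adjusted p = 0.692) and by 0.18 unexposed (SE 0.14, adjusted p = 0.728), and the first became 0.13 when only library totals set the scale. A second Ensembl ID with the symbol Ddit3, which overlaps this gene, was not used here.

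Cebpz, the ribosome assembly gene, spans 16 merged exons of chromosome 17 from 78919006 to 78937066, on the minus strand. Exposed knockout libraries read 86.7, 96.7, 106 and 100.5 CPM, and exposed controls 155, 108, 129.7 and 117 CPM. Unexposed knockouts read 50.2, 47.0, 52.8 and 88.0 CPM, and unexposed controls 52.4, 59.5, 66.998 and 49.9 CPM. After UVB all knockouts lay below all controls, and unexposed knockout library 4 lay far above the other 3. Cebpz rose with UVB by 0.71 in knockouts (1.64-fold, SE 0.17, edgeR adjusted p = 0.00273) and by 1.16 in controls (2.23-fold, SE 0.17, adjusted p = 2.47e-05). Exposed and unexposed knockouts overlapped through unexposed library 4, and controls did not overlap. The rise in knockouts stayed between 0.61 and 0.92 when each library was left out. The difference between exposed knockouts and controls, -0.39, had an unadjusted p of 0.0349 and did not pass (SE 0.17, edgeR adjusted p = 0.205). Unexposed it was 0.06 (SE 0.17, adjusted p = 0.979), and -0.17 without knockout library 4.

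Cebpe, on chromosome 14 from 54710360 to 54712174, had 0 of 710772907 counts, which allows a level of up to 0.00416 CPM over all libraries at 3 counts. That limit covers counting error only. Of the small counts deposited, 68.8% were even, so counts may not be independent reads, and then the limit is looser and the Cebpb residue rests on fewer reads than its counts. Of 16 granulocyte genes linked to C/EBP epsilon, 4 passed the filter on low counts. Of these 1 was called in unexposed knockouts, where 2.1% of all genes were called. It was Cxcr2, a chemokine receptor gene, higher by 1.08 (SE 0.24, edgeR adjusted p = 0.0215), at 19.0 to 29.2 CPM in knockouts and 9.98 to 13.8 CPM in controls. That call ended without unexposed control library 3 or 4 or unexposed knockout library 1 or 3 (adjusted p up to 0.0951), and Mpo was called lower without knockout library 1. In exposed knockouts edgeR, DESeq2 and limma voom called 0 of the 4, and edgeR called 1 without exposed control library 2. An unadjusted p under 0.05 was found for 1 of the 4, and for 3595 of all 17741 genes tested. With UVB 2 of the 4 rose in controls, where 35.8% of all genes were called. They were Cxcr2, by 0.94 (adjusted p = 0.00399), and Lcn2, a neutrophil and keratinocyte lipocalin gene, by 1.31 (adjusted p = 0.0315). The call of Lcn2 did not outlast the removal of unexposed control library 2 or 3 or exposed control library 1, 2 or 4, where its adjusted p reached 0.089. In knockouts the same 3 tools called 0 for UVB, and edgeR called 1 without unexposed knockout library 1. An unadjusted p under 0.05 was found for 2 of the 4 there, and for 7067 of all 17741 genes tested.

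Counted together, 1 member rose (Cebpg) and 1 fell (Cebpb) in exposed knockouts relative to exposed controls, where 4.68% of the 17741 genes tested were called, 2.36% higher and 2.32% lower. Cebpb is the deleted gene, so its fall was set by the design in both exposures and is no response of the family. In unexposed knockouts 0 members rose and 1 fell, again Cebpb, where 2.1% of all genes were called, 0.964% higher and 1.14% lower. Cebpb and Cebpg, 2 of the 6, had an unadjusted p under 0.05 there. DESeq2 called 2 members there and limma voom 1. After UVB 5 of 6 rose in knockouts and 0 fell, where 32.2% of all genes were called, 18.1% higher and 14.1% lower. The low residue of Cebpb, with overlapping groups, is 1 of these 5. In controls 4 of 6 rose and 1 fell, where 35.8% of all genes were called. Cebpb rose there without overlap but did not pass (edgeR adjusted p = 0.0805), so the 2 counts of rises differ by Cebpb alone. The fall in controls, that of Cebpg, was not called when control library 1 or 2 unexposed, or 1 or 3 exposed, was left out. The members' median log2 fold change after UVB, Cebpb included, was 0.76 in knockouts and 0.81 in controls. The median of all genes was 0.01 and -0.02 in the same order. Libraries of the groups compared did not overlap for 3 members in exposed knockouts against controls (11.3% of all genes), 2 unexposed (10%), 3 for UVB in knockouts (35.8%) and 5 for UVB in controls (33.8%). Cebpb is among those without overlap in both comparisons between genotypes. The 2 UVB comparisons share no library, but the comparisons between genotypes reuse the same libraries.

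**Figure D2:**
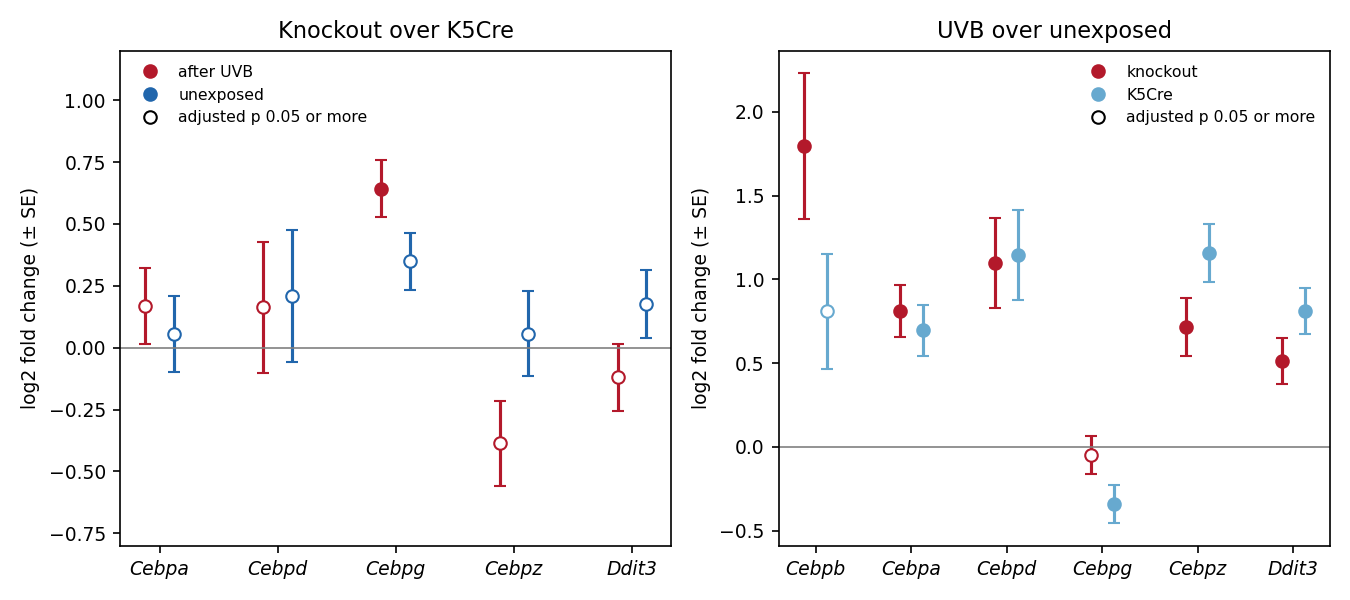
Log2 fold changes with their SE from the edgeR fit of 16 libraries, knockout over K5Cre on the left and UVB over unexposed on the right. Filled points have an adjusted p under 0.05. Cebpg after UVB is the filled point on the left, where Cebpb, at -7.23 and -8.22, is off the scale and not drawn, and most points on the right lie above 0.

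No member's UVB response was called different between knockouts and controls by edgeR, DESeq2 or limma voom. The differences, knockout minus control, were 0.99 for Cebpb (SE 0.55, edgeR adjusted p = 0.893), -0.44 for Cebpz (SE 0.24, adjusted p = 0.88), -0.30 for Ddit3 (SE 0.19, adjusted p = 0.91), 0.11 for Cebpa (SE 0.22, adjusted p = 0.973) and -0.05 for Cebpd (SE 0.37, adjusted p = 0.998). Of all 17741 genes edgeR called 0.0% for this difference, with 1043 at an unadjusted p under 0.05. Limma voom called 0 genes and DESeq2 31.

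Per kilobase of merged exons, the scale on which levels of different genes can be set side by side, Cebpa led in knockouts, and Cebpb and Cebpa together in controls. Exposed knockouts held 177 ± 24.5 CPM per kilobase of Cebpa (SD, n = 4), followed by Ddit3 at 25.3 ± 1.67, Cebpz at 20.95 ± 1.78, Cebpg at 16.3 ± 0.984, Cebpd at 2.92 ± 0.349 and Cebpb at 1.28 ± 0.713, with no overlap between neighbours in this order. Exposed controls held 193 ± 19.0 of Cebpb and 158 ± 30.0 of Cebpa, which overlapped, then Ddit3 at 27.5 ± 3.02 and Cebpz at 27.4 ± 4.41, which also overlapped, then Cebpg at 10.4 ± 1.51 and Cebpd at 2.60 ± 0.836. Cebpg thus stood below Cebpz in both exposed groups. With the longest transcript as length, Ddit3 lay above Cebpz in exposed controls without overlap, at no less than 44.9 against no more than 38.2 CPM per kilobase.

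Without exposure, knockouts held 101.2 ± 18.7 CPM per kilobase of Cebpa, then Ddit3 at 17.7 ± 1.91, Cebpg at 16.9 ± 0.998 and Cebpz at 12.8 ± 4.11, 3 genes whose libraries overlapped. Cebpd followed at 1.36 ± 0.364 and Cebpb at 0.382 ± 0.198. Unexposed controls held 110.5 ± 9.13 of Cebpb and 97.4 ± 8.98 of Cebpa, which overlapped, then Ddit3 at 15.7 ± 2.72, Cebpg at 13.2 ± 0.910 and Cebpz at 12.3 ± 1.66, again with overlap, and Cebpd at 1.18 ± 0.331. On the longest transcript Ddit3 stood clear of Cebpg and Cebpz, at no less than 26.9 CPM per kilobase in unexposed knockouts, where they reached 21.6, and at no less than 23.6 in unexposed controls, where they reached 16.9.

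Summed over the family, exposed knockouts held 244 ± 28.4 CPM per kilobase and exposed controls 419 ± 30.3. Unexposed knockouts held 150.3 ± 14.3 and unexposed controls 250.2 ± 12.9. With Cebpb left out, the sums were 243 ± 28.5 in exposed knockouts and 226 ± 29.7 in exposed controls, and 149.9 ± 14.3 in unexposed knockouts and 139.7 ± 6.53 in unexposed controls. The sums without Cebpb overlapped between the genotypes both exposed and unexposed. As shares of the family, Cebpb took 0.537% ± 0.317 in exposed knockouts and 46.2% ± 4.70 in exposed controls, and 0.257% ± 0.146 in unexposed knockouts and 44.1% ± 1.94 in unexposed controls. Cebpa took 72.5% ± 1.68 in exposed knockouts and 37.4% ± 4.80 in exposed controls, and 66.9% ± 6.79 in unexposed knockouts and 38.9% ± 2.64 in unexposed controls. The share of Cebpa rises by arithmetic once Cebpb leaves the sum. With Cebpb left out in all groups, Cebpa took 72.9% ± 1.61 in exposed knockouts and 69.5% ± 4.24 in exposed controls. Unexposed, it took 67.1% ± 6.74 in knockouts and 69.6% ± 3.38 in controls. These shares overlapped between the genotypes both exposed and unexposed. In controls the ratio of Cebpb to Cebpa counts was 0.720 ± 0.167 after UVB and 0.651 ± 0.0677 unexposed, so the balance of the 2 transcripts moved by less than its spread between exposed libraries.

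**Figure D3:**
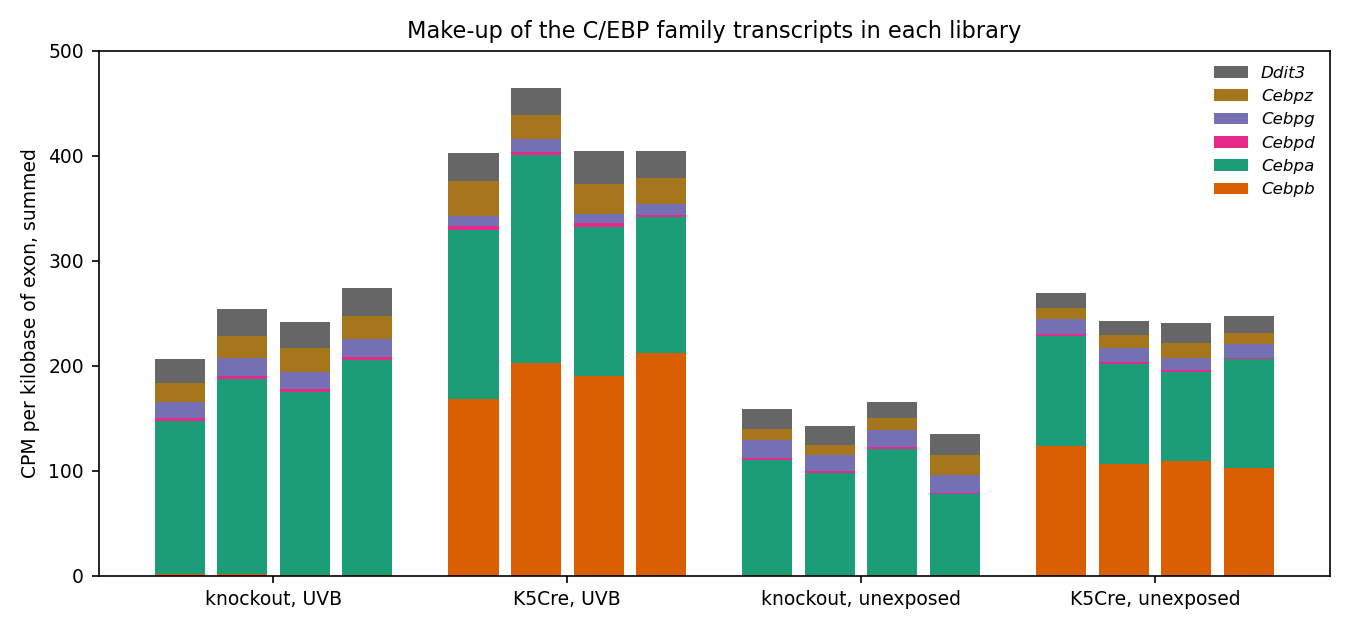
Stacked levels of the C/EBP transcripts in each of the 16 libraries, in CPM per kilobase of merged exons, with the 4 libraries of a group side by side. Cebpb makes up 41.8% to 52.5% of the bar in exposed controls and 41.5% to 45.9% in unexposed controls, and is hardly visible in knockouts, where Cebpa fills most of the bar.

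Genes that lie beside the members were read with care, because the sources do not state whether counting used strand. Tmem189, a lipid desaturase gene on the strand opposite to Cebpb, shares 312 bases with its exon, from 167689511 to 167689822. It read 2.61, 3.19, 2.68 and 4.01 CPM in exposed knockouts, against 25.5, 17.8, 17.6 and 11.8 CPM in exposed controls. Unexposed it read 1.42, 2.60, 1.47 and 0.687 CPM in knockouts, against 15.3, 16.9, 17.0 and 19.5 CPM in controls. All knockout libraries lay below all controls, with log2 fold changes of -2.54 after UVB (SE 0.30, edgeR adjusted p = 7.21e-05) and -3.46 unexposed (SE 0.32, adjusted p = 2.26e-06). With UVB Tmem189 rose by 0.997 in knockouts (SE 0.30, edgeR adjusted p = 0.0129), without overlap. In controls its log2 fold change was 0.08 (edgeR adjusted p = 0.856). Reads of the shared bases cannot be told apart between the genes without strand, so the Tmem189 values and the Cebpb residue are uncertain. Ptpn1, a protein-coding neighbour of Cebpb at 241639 bases, was not called in any comparison.

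Pepd, which encodes a dipeptidase that frees proline, lies 1714 bases from Cebpg on the opposite strand and shares no exon with it. It read 53.4, 46.0, 45.6 and 40.1 CPM in exposed knockouts, against 73.3, 64.7, 73.6 and 85.8 CPM in exposed controls. Unexposed it read 75.5, 81.8, 95.1 and 81.9 CPM in knockouts, against 142, 155, 166 and 148 CPM in controls. Pepd was lower where Cebpg was higher, with no overlap between the genotypes: its log2 fold change was -0.68 after UVB (SE 0.12, edgeR adjusted p = 0.00229) and -0.87 unexposed (SE 0.12, adjusted p = 0.000464). UVB lowered Pepd by a log2 fold change of -0.85 in knockouts (SE 0.12, adjusted p = 1.7e-05) and -1.04 in controls (SE 0.12, adjusted p = 1.32e-06). The ratio of Cebpg to Pepd counts, which needs no scaling between libraries, was 2.01 ± 0.347 in exposed knockouts and 0.802 ± 0.188 in exposed controls, and 1.14 ± 0.136 in unexposed knockouts and 0.489 ± 0.0609 in unexposed controls. With library totals alone as the scale, the call of Pepd after UVB ended (edgeR adjusted p = 0.0704).

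Of the transcripts that share exon bases with Cebpg, Gm44836 (73 bases) had no count in any library and Gm45095 (4 bases) reached 0.0387 CPM at most. Gm45091, an antisense transcript that shares 51 bases with Cebpa, rose by 2.35 after UVB in controls (SE 0.48, edgeR adjusted p = 0.000663), to 2.62 ± 0.571 CPM exposed against 0.512 ± 0.124 CPM unexposed (SD, n = 4 each), while 0.82 in knockouts did not pass. Mars, a tRNA ligase gene sharing 68 bases with Ddit3 on the opposite strand, rose after UVB by 0.79 in knockouts (SE 0.15, adjusted p = 0.000453) and by 0.48 in controls (SE 0.15, adjusted p = 0.0191), and the control call ended without exposed control library 2 or 3 or unexposed control library 2 or 3 (adjusted p up to 0.119). Spidr, which shares 562 bases with Cebpd, and Cebpzos, which shares 171 with Cebpz, were not called in any comparison. Ndufaf7, which starts 70 bases from Cebpz, was 0.64 in exposed knockouts over controls and did not pass (SE 0.20, adjusted p = 0.0719).

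**Figure D4:**
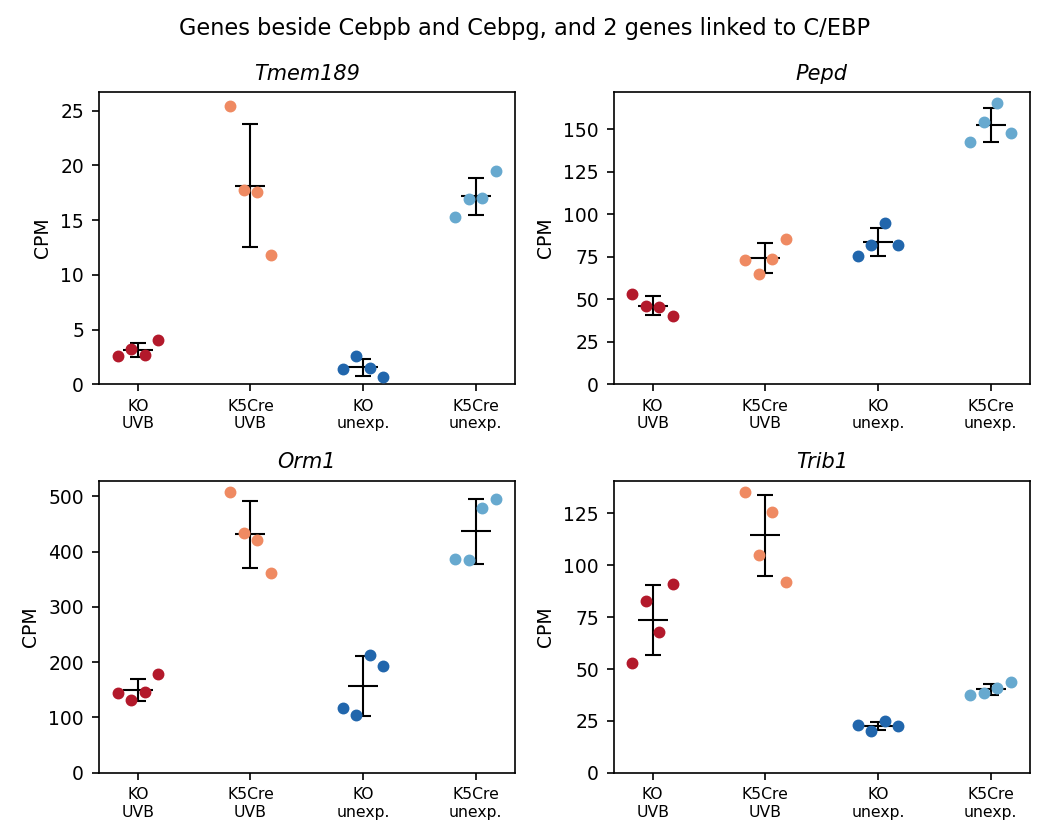
Levels of 2 genes beside members of the family and of 2 genes linked to C/EBP, in CPM on linear axes from 0. Each point is a library and bars give the mean ± SD of 4 libraries. Tmem189, Pepd and Orm1 are lower in knockouts (KO) than in K5Cre controls in each exposure, and Trib1 is lower in knockouts and higher after UVB.

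Basic leucine zipper genes whose products pair or compete with C/EBPs were counted as a list of 22, of which 21 were tested. In exposed knockouts 0 rose and 2 fell relative to exposed controls, where 4.68% of all genes were called, with a median of -0.28, and 6 had an unadjusted p under 0.05. DESeq2 called 3 of them and limma voom 2. Jund, an AP-1 subunit gene, was lower by a log2 fold change of -0.50 (SE 0.11, edgeR adjusted p = 0.0111). Tef, a clock-controlled factor gene, was lower at -0.59 (SE 0.13, adjusted p = 0.0148), and its call ended without exposed knockout library 2 or 3 (adjusted p up to 0.0523). Without exposed control library 4, 1 gene of the list rose. Unexposed, 2 rose and 0 fell, where 2.1% of all genes were called. Atf3, a stress-induced partner of C/EBPs, was at 35.3, 8.90, 13.5 and 12.7 CPM in knockouts, against 2.87, 5.72, 4.03 and 3.37 CPM in controls, a gap without overlap. It was higher by 2.14 on the log2 scale (4.41-fold, SE 0.38, edgeR adjusted p = 0.0079), and leaving out knockout library 1 made this 2.93-fold. Fosl1, another AP-1 gene, was higher by 1.35 (SE 0.28, adjusted p = 0.0189), and that call ended without knockout library 1 or control library 1 or 4 (adjusted p up to 0.077).

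After UVB 7 of 21 rose and 5 fell in knockouts, with a median of 0.41, and 11 rose and 4 fell in controls, with a median of 0.55. These are 57.1% and 71.4% of the list, where 32.2% and 35.8% of all genes were called. Fosl1 rose by 3.95 in knockouts (SE 0.30, edgeR adjusted p = 8.32e-08) and by 5.63 in controls (SE 0.33, adjusted p = 2.5e-09). Atf4, a partner of C/EBPγ, rose by 1.07 in knockouts and 1.19 in controls. Those that fell included the related PAR-domain factor genes Dbp, by 2.25 in knockouts and 2.20 in controls, Tef, by 1.23 and 1.09 in the same order, and Hlf, by 2.09 and 1.84. For the difference between the responses edgeR and limma voom called 0 of 21, DESeq2 called 2, and 4 had an unadjusted p under 0.05.

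The list of integrated stress and endoplasmic reticulum stress genes around Ddit3 had 26 tested members. After UVB 8 rose and 2 fell in knockouts, and 7 rose and 3 fell in controls, with medians of 0.29 and 0.16. That is 38.5% of the list in each genotype, near the 32.2% of all genes called in knockouts and 35.8% in controls. Dnajb9, a chaperone gene of the endoplasmic reticulum, rose by 3.11 in knockouts (SE 0.20, edgeR adjusted p = 3.46e-09) and by 2.97 in controls (SE 0.20, adjusted p = 1.32e-09). Hspa5, the main chaperone gene there, rose by 1.54 in knockouts and 1.62 in controls, and Ppp1r15b, which encodes a partner of the eIF2α phosphatase, by 1.81 and 2.14 in the same order. Targets classically tied to CHOP were not called: Ppp1r15a was at 0.16 in knockouts and 0.03 in controls, Trib3 at 0.28 and 0.22, and Chac1 at 1.19 and 0.64. The fallen count in controls was 7 without exposed library 2 and 1 without exposed library 3. In knockouts it was 0 without exposed library 2, 1 without exposed library 3 or unexposed library 1 or 3, and 4 without unexposed library 4.

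Between the genotypes Eif2ak2, an interferon-induced kinase gene of the same pathway, was the 1 call of this list. After UVB it was at 31.9, 34.9, 69.6 and 73.5 CPM in knockouts, against 13.5, 21.97, 10.7 and 9.11 CPM in controls, without overlap (log2 fold change 1.92, SE 0.28, edgeR adjusted p = 0.000649). Unexposed it was higher by 1.18 (SE 0.27, adjusted p = 0.0292). It was no longer called on leaving out any 1 of the 4 control libraries or of knockout libraries 1 to 3 (adjusted p up to 0.11). Without exposed control library 2 the list had 3 genes that rose, and without exposed knockout library 4 it had 2. The 1 call is 3.85% of the list, where 4.68% of all genes were called after UVB and 2.1% unexposed. Medians over the list were 0.10 after UVB and -0.04 unexposed, and those of all genes 0.04 and 0.00.

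Among 25 tested genes for signals and regulators of C/EBP proteins, Trib1 stood in both genotype comparisons. Its product is a pseudokinase that brings C/EBPα to a ubiquitin ligase. Exposed knockouts read 53.1, 82.9, 67.9 and 91.2 CPM, against 135, 105, 125 and 92.1 CPM in exposed controls. Unexposed knockouts read 22.8, 20.2, 24.9 and 22.3 CPM, against 37.5, 38.6, 40.8 and 43.8 CPM in unexposed controls. Knockouts lay below controls in each exposure without overlap, narrowly so after UVB. Trib1 was lower by a log2 fold change of -0.63 after UVB (SE 0.15, edgeR adjusted p = 0.0203) and -0.83 unexposed (SE 0.15, adjusted p = 0.00581). The first call ended without exposed control library 1 or 3 or exposed knockout library 1 or 3 (adjusted p up to 0.0754). Rps6ka1, a kinase gene, was the 1 member of the list that was higher in exposed knockouts (0.79, SE 0.22, adjusted p = 0.043), a call that ended without any 1 of the knockout libraries or of control libraries 1 and 3 (adjusted p up to 0.119). Without exposed control library 2, 2 members rose. The calls make up 8.0% of the list after UVB and 4.0% unexposed, where 4.68% and 2.1% of all genes were called. Medians were -0.03 after UVB and -0.00 unexposed.

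With UVB 8 of these 25 rose and 8 fell in knockouts, and 9 rose and 9 fell in controls, with medians of 0.06 and -0.17. The calls make up 64.0% and 72.0% of the list, beside 32.2% and 35.8% of all genes. Trib1 rose by 1.71 in knockouts (SE 0.16, edgeR adjusted p = 1.82e-07) and by 1.51 in controls (SE 0.16, adjusted p = 3.49e-07). Rela, an NF-κB subunit gene, rose by 2.31 in knockouts and 2.47 in controls, and the tumour necrosis factor receptor gene Tnfrsf1a by 1.01 and 1.19 in the same order. Il6ra, the interleukin 6 receptor gene, fell by 1.36 in knockouts and 1.48 in controls. Without exposed knockout library 4 the rises in knockouts numbered 5.

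Inflammatory and acute phase genes known as C/EBP targets had 18 of 26 members tested. Orm1, an acute phase glycoprotein gene and a classic C/EBPβ target in liver, was lower in knockouts. It read 144, 132, 146 and 178 CPM in exposed knockouts, against 508, 433, 422 and 362 CPM in exposed controls. Unexposed it read 117, 104, 212 and 194 CPM in knockouts, against 387, 385, 479 and 496 CPM in controls. No knockout library reached a control, and UVB hardly moved the gene, at -0.06 in knockouts and -0.02 in controls. Orm1 was lower by a log2 fold change of -1.52 after UVB (SE 0.19, edgeR adjusted p = 0.000112) and -1.48 unexposed (SE 0.19, adjusted p = 0.00024), and held its call in every alternative run. Its near copy Orm2 was at -1.91 and -1.92 without passing, and reads that fit both copies make their counts uncertain. Il1rn, the interleukin 1 receptor antagonist gene, was lower by -0.62 in exposed knockouts (SE 0.14, adjusted p = 0.0135), a call lost without exposed knockout library 1 or 3 (adjusted p up to 0.0548).

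In this list 0 members rose in either genotype comparison, with medians of -0.22 after UVB and -0.09 unexposed, where 5 and 6 members had an unadjusted p under 0.05. Over all 17741 genes tested, edgeR found 3595 and 2208 under that p and called 4.68% and 2.1%. DESeq2 called 4 and 3 members of the list and limma voom 6 and 1, in either direction. Over all genes DESeq2 called 711 higher and 805 lower after UVB, and 385 and 357 unexposed. Limma voom called 408 higher and 419 lower after UVB, and 183 and 261 unexposed. Without exposed control library 2, and without unexposed control library 3, 1 member rose. UVB raised 10 of 18 in knockouts (55.6%) and 12 in controls (66.7%) and lowered none, where 32.2% and 35.8% of all genes were called in either direction, with medians of 1.76 and 2.04, and edgeR found 11 and 12 at an unadjusted p under 0.05. Il1b, the interleukin 1β gene, rose by 2.88 in knockouts (7.35-fold, SE 0.45, edgeR adjusted p = 6.42e-05) and by 3.68 in controls (SE 0.47, adjusted p = 6.44e-06), and was 11.9-fold higher in knockouts without unexposed knockout library 1. Ccl20, a chemokine gene, rose by 2.72 in knockouts and 2.24 in controls, and Socs3, a feedback inhibitor of cytokine signalling, by 1.12 and 2.14 in the same order.

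Keratinocyte differentiation genes linked to C/EBPs, 24 of which were tested, gave 1 rise and 2 falls in exposed knockouts and 2 rises and 0 falls in unexposed ones, with medians of -0.15 and -0.02, where 4.68% of all genes were called exposed and 2.1% unexposed. Krt5, the basal keratin gene, was at 761, 791, 737 and 807 CPM in exposed knockouts, against 383, 487, 266 and 271 CPM in exposed controls, without overlap (log2 fold change 1.14, SE 0.23, edgeR adjusted p = 0.00641). Lor, a cornified envelope gene, was lower by -0.91 in exposed knockouts (SE 0.20, adjusted p = 0.0105), also without overlap. Krtdap, at -0.53 (adjusted p = 0.0429), lost its call without any 1 of exposed control libraries 1 to 3 or exposed knockout libraries 1 to 3 (adjusted p up to 0.133). Without exposed control library 2, 4 genes rose. Unexposed, Sprr1b was higher by 2.09 (adjusted p = 0.028) and Krt14 by 1.5 (adjusted p = 0.0466). Sprr1b was lost without control library 2 or 3 or knockout library 1 or 2 (adjusted p up to 0.109), and Krt14 without any 1 of the control libraries or of knockout libraries 1 to 3 (adjusted p up to 0.172). Lor fell instead without control library 2 or knockout library 3. Reads of Sprr1b may be shared with its near copy Sprr1a.

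UVB raised 8 of these 24 in knockouts and 10 in controls, and lowered 2 and 3, with medians of 0.32 and 0.47. In knockouts the calls make up 41.7% of the list, not far from the 32.2% of all genes, and in controls 54.2%, beside 35.8%. Tgm1, the keratinocyte transglutaminase gene, rose by 1.38 in knockouts (SE 0.16, edgeR adjusted p = 2.46e-06) and by 1.59 in controls (SE 0.16, adjusted p = 3.21e-07), and Sfn, a gene of stressed and differentiating keratinocytes, by 1.67 and 1.82. Without unexposed knockout library 3 only 1 fell in knockouts. For the difference between the responses edgeR, DESeq2 and limma voom called 0 of the 24, and 3 had an unadjusted p under 0.05.

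The adipogenic and sebocyte list, whose genes depend on C/EBPα and Pparg in fat and sebaceous cells, had 16 of 20 tested. In exposed knockouts 1 fell, Lpl, the lipoprotein lipase gene (-2.31, SE 0.54, edgeR adjusted p = 0.0217), and it was lost without exposed knockout library 2, 3 or 4 (adjusted p up to 0.0805). That call is 6.25% of the list, where 4.68% of all genes were called. Unexposed, edgeR and limma voom called 0 and DESeq2 2, where edgeR called 2.1% of all genes. An unadjusted p under 0.05 was found there for 7 of the list, and for 2208 of all 17741 genes tested. Medians were -0.82 after UVB and -1.01 unexposed. All 6 sebocyte markers tested are themselves in this list. With UVB 4 rose and 1 fell in knockouts, and 2 rose and 1 fell in controls, or 31.2% and 18.8% of the list where 32.2% and 35.8% of all genes were called. Fasn, the fatty acid synthase gene, rose by 0.57 in knockouts (SE 0.14, adjusted p = 0.00341) and by 0.68 in controls (SE 0.14, adjusted p = 0.000752), and Acaca, which feeds it, fell by 1.24 and 1.12. The risen count was 9 in knockouts without exposed library 3. In controls it was 8 without exposed library 1 and 1 without exposed library 2, 3 or 4 or unexposed library 2, 3 or 4.

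Each member's nearest companions were sought by Pearson correlation of log2 CPM over the 16 libraries, among the 13192 genes that averaged 1 CPM or more. The libraries share genotype and exposure, so the values describe a common pattern and carry no test. Cebpb was most alike Sgpp2 (r = 0.949), which encodes a sphingosine phosphate phosphatase, but once each library's deviation from its group mean was taken, r was 0.02. For Cebpa the nearest was Arf6, a small GTPase gene, with r = 0.988, and 0.978 within groups. Cebpz was nearest to Ubxn4, with r = 0.987, and 0.939 within groups. Cebpd was nearest to BC037034 (r = 0.955, and 0.814 within groups) and Ddit3 to Gm10463 (r = 0.962, and 0.78 within groups). Cebpg was nearest to Parp9 (r = 0.959, and 0.764 within groups), followed by Ifi44 (r = 0.948, and 0.672 within groups) and Dtx3l (r = 0.946, and 0.596 within groups). Among the members themselves, Cebpz and Ddit3 were most alike (r = 0.883, and 0.432 within groups) and Cebpb and Cebpg least (r = -0.835, and 0.244 within groups).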

How the data were processed

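RNA of 16 epidermis libraries was sequenced with a directional kit, per the labels' protocols. The authors deposited raw read counts per Ensembl gene. FastQC, STAR, HTSeq and DESeq2 are named in the submitters' processing notes, while build, versions and strand setting were given in no source used here. Most small counts were even, for which no reason is stated. Symbols and positions came from GENCODE M21 (GRCm38), which named 49326 of 49585 IDs and left 259 unnamed.

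Genes passing filterByExpr (17741) were fitted over all 4 groups with edgeR 4.0.16 (R 4.3.3), using TMM scaling, robust quasi-likelihood tests and Benjamini-Hochberg adjustment, called at 0.05. The fit had 12 residual degrees of freedom. SE is the log2 fold change divided by the square root of F. All adjusted p-values not credited to another tool are edgeR's. Levels are CPM, and per-length values divide by merged exon length. Depth limits Cebpb in knockouts most. The code was tested on simulated data. Alternatives were DESeq2 1.42.0, limma voom 3.58.1, other scalings and filters, fits without robust estimation, 2-group fits and leaving out each library.

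The members and gene lists were chosen with earlier results of these data known. Named genes are the members, the genes overlapping or next to them, the genes most alike in pattern, and, from each list and comparison, some of the up to 4 called genes with the smallest p-values. Atf4, Mpo, Ppp1r15a, Trib3, Chac1 and Orm2 were chosen after their values were seen.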

Additional observations from a re-analysis of the deposited data

Results flagged for a closer look

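Cebpz read 88.0 CPM in unexposed knockout library 4, while the other 3 unexposed knockout libraries read 47.0 to 52.8 CPM. The gap to the nearest of them was 0.859 of the range of the group, above Dixon's 95% limit for 4 samples. Of 24 groups of 4 libraries examined, this was the 1 beyond the limit, and chance puts about 1 in 20 there. The same library had 10.2% mitochondrial counts, 7.52% of its counts on Gm42418, a gene that overlaps ribosomal RNA, and 18807 genes detected at equal depth. The other 3 had 4.33% to 5.67%, 1.57% to 1.76% and 20509 to 21173 in the same order. Unexposed control library 2 had 7.93% on Gm42418, and exposed control library 4 had 6.64%, with 9.65% mitochondrial counts. Neither was flagged for Cebpz. The part of these measures in the Cebpz value was not tested.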

How the results depend on the processing

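Without TMM, on library totals alone, the median log2 fold change of all genes moved to 0.29 for knockouts after UVB, 0.16 for unexposed knockouts and -0.19 for UVB in controls, and 1426 genes were called after UVB between genotypes (1247 higher, 179 lower) in place of 830 (418 higher, 412 lower). On that scale Ddit3 after UVB became 0.13 and the Cebpd difference of responses 0.0141, and the calls of Jund, Tef, Trib1, Il1rn, Krtdap and Pepd in exposed knockouts ended. Unexposed knockouts gave 235 higher and 82 lower genes on that scale, and 180 and 136 with upper-quartile scaling, in place of 171 and 202. UVB in controls gave 2182 higher and 3857 lower on library totals. DESeq2 called 1 member higher (Cebpg) and 742 genes in unexposed knockouts, 1516 genes in exposed knockouts and 31 for the difference of responses, where edgeR without a filter on low counts called 2. Cebpb in controls after UVB was called by limma voom (0.81), edgeR without robust estimation (0.81) and the 2-group fit (0.79). With the longest transcript as length, Cebpa made up 65.7% of the family in exposed knockouts and 59.6% in unexposed knockouts, and Cebpb 41.3% in unexposed controls. Ddit3, with 969 bases in place of 1713, made up 16.6% in place of 10.4% in exposed knockouts and 18.7% in place of 12.0% in unexposed knockouts, and its overlap with Cebpz and Cebpg ended.

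Leaving out 1 library at a time gave 419 to 1356 genes called in exposed knockouts, 134 to 435 in unexposed knockouts and 0 to 2 for the difference of responses, and 0 to 1 member lower after UVB in controls. In unexposed knockouts Cebpa ranged from -0.0411 to 0.19 and Cebpz from -0.17 to 0.16, with -0.00366 without control library 4. Cebpd in exposed knockouts ranged from -0.00491 to 0.35. The difference of responses ranged from -0.036 to 0.25 for Cebpa (-0.01 without exposed control library 4) and from -0.24 to 0.12 for Cebpd, with 0.10, 0.11, 0.01 and 0.00707 among its positive values. None of these had passed its test, and the causes were not tested. No paired analysis was possible because the replicate numbers come from accession order and pair no samples. Low counts limit Cebpd, Cebpe and the Cebpb residue.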
